A study of Mus musculus with 1545 samples.

Results

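Expression of 10 transcription factor genes was followed across neurons of the mouse spinal dorsal horn, the part of the cord that receives fibres for pain, itch and touch. They were Neurod1, Neurod2 and Neurod6, Nfia, Nfib and Nfix, Prox1, Zfhx3 and Zfhx4, and Pou2f2. The genes were chosen by name, as factors of local and of projecting spinal neurons, and all 10 had an entry among the 24378 genes of the deposited molecule table. Each sample of the series was 1 cell, and 1545 cells were measured by counting unique molecular identifiers (UMIs), tags that mark single RNA molecules.

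The cells came from 3 kinds of mice. The vGat-Cre-tdTomato line (537 cells, 17 to 24 days old) carries a red reporter switched on by Cre under the vesicular GABA transporter gene, which marks inhibitory neurons. The vGlut2-eGFP line (371 cells, 23 to 26 days) carries a green reporter under the vesicular glutamate transporter 2 gene, which marks excitatory neurons. C57bl6 wild-type mice (637 cells, 18 to 28 days) carried no reporter that the labels name. Animals are not named in the labels, so cells that share a line, an age label and a sex label were taken as 1 animal set, which gave 3 sets of the vGat line, 4 of the vGlut2 line and 10 of wild type. Nothing says how many mice a set pooled, so p-values measure only the spread between these sets. The pair of wild-type sets aged 22 days, which only the sex label sets apart, may hold the same mice.

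The authors annotated 14 inhibitory types (760 cells), 15 excitatory types (767 cells) and 1 type whose labels disagree, called Gaba1 in 1 label and Glut_Gal in another (18 cells). Types rest on clustering of these same cells, so levels by type are mainly a description. Marker genes followed the annotated class: the summed level of 5 inhibitory markers ran from 1160 to 1770 counts per 1000000 UMIs (CPM) in wild-type inhibitory cells and from 21.7 to 125.4 CPM in wild-type excitatory cells. RNA of oligodendrocytes, the cells that make myelin, was unevenly spread. The sum of 10 of their markers ran from 1481 to 4421 CPM in vGat sets, from 78.2 to 39988 CPM in vGlut2 sets, where the 26-day set was highest, and from 18803 to 51046 CPM in wild-type sets. No capture run held more than 1 line, so the line and the run cannot be told apart in any comparison of lines. Of 1490 cells labelled male, 871 held a UMI of Xist, the RNA of the silenced female X chromosome, so the sex label was used only to keep sets apart.

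Neurod factors are basic helix-loop-helix proteins that pair with E proteins and bind E-boxes, short DNA motifs of the form CANNTG, to drive neuronal differentiation. Nfi factors are DNA-binding proteins that act late in the patterning of the neural tube, and Prox1 is a homeobox factor that accompanies exit from the cell cycle. In the embryonic cord, Neurod and Nfi genes mark later-born neurons with local axons, while the large zinc-finger homeobox genes Zfhx3 and Zfhx4 and the POU factor Pou2f2 mark earlier-born neurons, many with long axons.

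The promoter stretches of the 3 Neurod genes are given because these genes parted the cell classes most sharply. They come from a RefSeq table of build GRCm38.p6, on the minus strand, cut to the bases before the annotated gene start, and capitals mark every CANNTG match. In all, 8 of the 10 genes had an entry in that table.
Neurod1: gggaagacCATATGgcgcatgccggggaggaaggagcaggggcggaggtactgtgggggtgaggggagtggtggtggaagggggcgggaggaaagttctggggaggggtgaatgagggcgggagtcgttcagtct
Neurod2: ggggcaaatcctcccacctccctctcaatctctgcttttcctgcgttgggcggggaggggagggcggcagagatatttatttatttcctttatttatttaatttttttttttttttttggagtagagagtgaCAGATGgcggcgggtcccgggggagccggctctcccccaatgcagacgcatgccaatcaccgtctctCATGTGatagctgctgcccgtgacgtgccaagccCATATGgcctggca
Neurod6: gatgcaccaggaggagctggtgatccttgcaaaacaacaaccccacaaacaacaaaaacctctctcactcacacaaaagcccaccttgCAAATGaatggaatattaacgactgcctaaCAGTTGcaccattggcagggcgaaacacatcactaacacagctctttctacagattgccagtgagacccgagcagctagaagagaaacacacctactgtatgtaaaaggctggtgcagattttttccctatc

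The stretches lie at chr2:79456752-79456886 for Neurod1, chr11:98329649-98329895 for Neurod2 and chr6:55681264-55681513 for Neurod6, each directly before the annotated gene start (GENCODE M21). The genes themselves run to the lower coordinate from there, Neurod1 over 79452521 to 79456751, Neurod2 over 98325415 to 98329648 and Neurod6 over 55677822 to 55681263. The motif CANNTG reads the same on both strands and was found 1 time before Neurod1, 3 times before Neurod2 and 2 times before Neurod6. Among 32851 promoter windows of the same length, 45.6%, 65.9% and 66.2% held a match at the lengths used for Neurod1, Neurod2 and Neurod6, so a match is common. As many matches as in the Neurod2 stretch were found in 11.9% of windows, and as many as in the Neurod6 stretch in 31.8%. A match is a description of the letters and not a bound site.

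The genes were sparse in single cells. Over all 1545 cells, Nfib stood at 80.1 CPM and was seen in 33.4% of cells, Nfix at 40.4 CPM in 23.6%, and Pou2f2, the rarest, at 5.79 CPM in 4.98%. The others lay between, with Neurod6 at 27.7, Zfhx4 at 27.4, Zfhx3 at 24.2, Nfia at 22.5, Neurod2 at 22.2, Neurod1 at 12.9 and Prox1 at 11.1 CPM. The median cell held 8808 UMIs (3012 to 32886), so a cell without a UMI of a gene may still express it. Neurod counts were nearly confined to one class: inhibitory types held 94.8% of Neurod1, 96.1% of Neurod2 and 95.6% of Neurod6 counts. For the other genes that share was 75.2% for Nfib, 68.1% for Zfhx4, 61.8% for Prox1, 58.3% for Nfix, 53.6% for both Nfia and Zfhx3, and 40.7% for Pou2f2. Inhibitory types held 8284301 of all 14853604 UMIs. Nfix lay a little above that share, Nfia and Zfhx3 a little below it, and Pou2f2 further below.

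**Figure D1:**
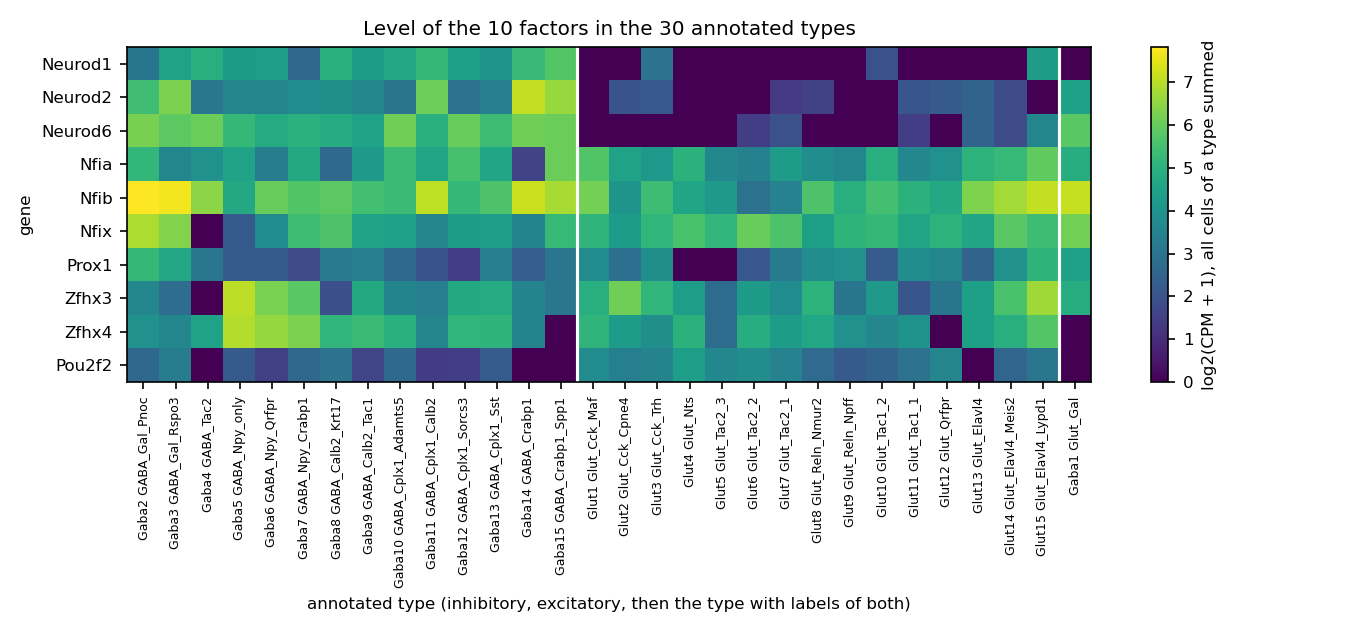
Level of each factor (rows) in each annotated type (columns; inhibitory types, excitatory types and the type with labels of both, parted by white lines), as log2(CPM + 1) of the UMIs of all cells of a type summed. The Neurod rows are bright in inhibitory columns and low or dark in excitatory ones except for Neurod1 and Neurod6 in Glut15, and among inhibitory types the Zfhx rows are brightest in the 3 Npy types.

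The clearest difference was between the reporter lines. All 3 Neurod genes and Nfib were higher in the vGat line than in the vGlut2 line, whereas Nfia, Nfix, Zfhx3, Zfhx4 and Pou2f2 did not pass the test. Of the 9 factors that could be tested, 4 were called higher and 0 lower (adjusted p under 0.05, edgeR quasi-likelihood test with Benjamini-Hochberg adjustment over 10598 genes), against 8.85% of all genes called in either direction, 4.32% called higher and 4.53% called lower. Prox1 failed the filter on low counts.

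Neurod6 stood at 52.9, 51.7 and 55.8 CPM in the vGat sets of 17, 18 and 24 days, and at 0, 0, 1.02 and 0 CPM in the vGlut2 sets of 23, 24, 25 and 26 days. The groups were far apart, and the vGlut2 line held 2 Neurod6 counts in all; pooled over sets, vGat cells stood at 53.05 CPM and vGlut2 cells at 0.746 CPM. The pooled ratio was 71.1, with a counting interval of 19.5 to 590 (95%, exact, counting error only), and the adjusted p was 5.37e-07 (edgeR).

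Neurod1, a factor best known for keeping differentiating neurons and endocrine cells on course, had 32.99, 20.3 and 33.03 CPM in the vGat sets and no count in any of the 4 vGlut2 sets. Against a floor of 3 counts over the vGlut2 line it was at least 24.3-fold higher in the vGat line (edgeR adjusted p = 1.00e-04). Neurod2, whose product drives maturation of postmitotic neurons, had 30.1, 37.5 and 32.3 CPM in the vGat sets and 0, 0, 0 and 12.6 CPM in the vGlut2 sets, again without overlap. Its 2 counts in the vGlut2 line lay in the 26-day set, which holds 17 cells, 5 of them of inhibitory types. Pooled levels of 34.03 CPM in vGat cells and 0.746 CPM in vGlut2 cells gave a ratio of 45.6 (counting interval 12.5 to 379.2; edgeR adjusted p = 0.000138).

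Nfib had 93.9, 104.96 and 77.8 CPM in the vGat sets and 6.52, 19.1, 9.71 and 56.6 CPM in the vGlut2 sets. The groups did not overlap, though the 26-day vGlut2 set came close. The log2 difference was 2.76 ± 0.39 (SE; edgeR adjusted p = 0.000163). Its relatives were not called: Nfia had 10.8, 12.3 and 12.5 CPM in the vGat sets and 4.34, 9.57, 4.602 and 31.4 CPM in the vGlut2 sets (log2 difference 0.73 ± 0.53, edgeR adjusted p = 0.488), and Nfix differed by 0.52 ± 0.29 (adjusted p = 0.342).

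The Zfhx and Pou2f2 genes were present in both lines. Zfhx3 averaged 20.1 ± 2.61 CPM over vGat sets (SD, n = 3) and 18.7 ± 7.24 CPM over vGlut2 sets (n = 4), and the log2 difference was 0.08 ± 0.31 (edgeR adjusted p = 0.935). Zfhx4 averaged 37.4 ± 4.77 and 27.1 ± 11.7 CPM in the vGat and vGlut2 lines (log2 difference 0.51 ± 0.27, adjusted p = 0.295, edgeR). Pou2f2 was the only factor with a lower estimate in the vGat line: 4.55, 5.36 and 3.67 CPM against 8.69, 9.57, 9.20 and 6.29 CPM in the vGlut2 line. Its sets did not overlap, yet the difference of -0.95 ± 0.42 log2 units failed the adjustment (unadjusted p 0.0397, adjusted p = 0.212, edgeR). Prox1 had 52 counts in the vGat line and 3 in the vGlut2 line, a ratio of 8.11 (counting interval 2.62 to 40.6).

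Inhibitory and excitatory cells of the same wild-type sets gave a second comparison of the classes, free of the line. The classes rest on the authors' annotation of these same cells, so the p-values of this comparison are not independent of them. Neurod2, Neurod6 and Nfib were higher in inhibitory cells in all 7 sets that held 10 or more cells of both classes. Those 3 of the 8 factors tested were called higher and 0 lower, where 5.63% of 8135 genes were called in either direction, 3.17% higher and 2.46% lower. The animal set was a block, since both sums of a set come from the same mice. Without it the filter kept only 4 of the factors, and Nfib alone was called.

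Neurod2 ran from 10.6 to 87.9 CPM in wild-type inhibitory sums (median 59.8) and from 0 to 6.53 CPM in excitatory sums (median 3.44), a log2 difference of 4.22 ± 0.50 (edgeR adjusted p = 6.51e-06). Neurod6 ran from 10.6 to 58.6 CPM in inhibitory sums (median 38.4) and from 0 to 10.3 CPM in excitatory sums (median 1.99), a log2 difference of 3.87 ± 0.63 (edgeR adjusted p = 0.000290). Neither pair of ranges overlapped, but both factors were at their inhibitory minimum in the 22-day set labelled female, where Neurod6 had 10.6 CPM in the inhibitory and 10.3 CPM in the excitatory sum. Nfib ran from 102.6 to 212.4 CPM in inhibitory sums (median 132.6) and from 37.8 to 95.7 CPM in excitatory sums (median 47.6), again without overlap (log2 difference 1.20 ± 0.19, edgeR adjusted p = 0.000241).

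Single capture runs showed the same order of the classes. In 36 wild-type runs with at least 3 cells of each class, Neurod6 was higher in inhibitory cells in 26 runs and lower in 1, Neurod2 in 25 and 4, and Nfib in 29 and 7. Neurod1 was too sparse for the test, with 26 counts in inhibitory and 7 in excitatory sums, and was higher in inhibitory cells in 6 of 7 sets.

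The other factors showed no called difference between wild-type classes. Nfia averaged 40.5 ± 22.9 CPM in inhibitory and 34.8 ± 11.1 CPM in excitatory sums (SD, n = 7; edgeR adjusted p = 0.872), and Nfix 41.8 ± 8.82 and 46.3 ± 16.2 CPM (adjusted p = 0.848, edgeR). Zfhx3 averaged 29.1 ± 23.2 and 27.4 ± 16.9 CPM in inhibitory and excitatory sums, although its single values ran from 0 to 67.2 CPM. Zfhx4 (24.7 ± 10.6 and 15.97 ± 2.50 CPM) and Prox1 (23.9 ± 9.79 and 13.52 ± 9.82 CPM) were each higher in inhibitory cells in 6 of 7 sets without passing the test (edgeR adjusted p = 0.579 and 0.410). Pou2f2, not tested, was lower in inhibitory cells in 6 of 7 sets, with 2.94 ± 2.79 CPM there and 7.69 ± 5.11 CPM in excitatory cells.

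**Figure D2:**
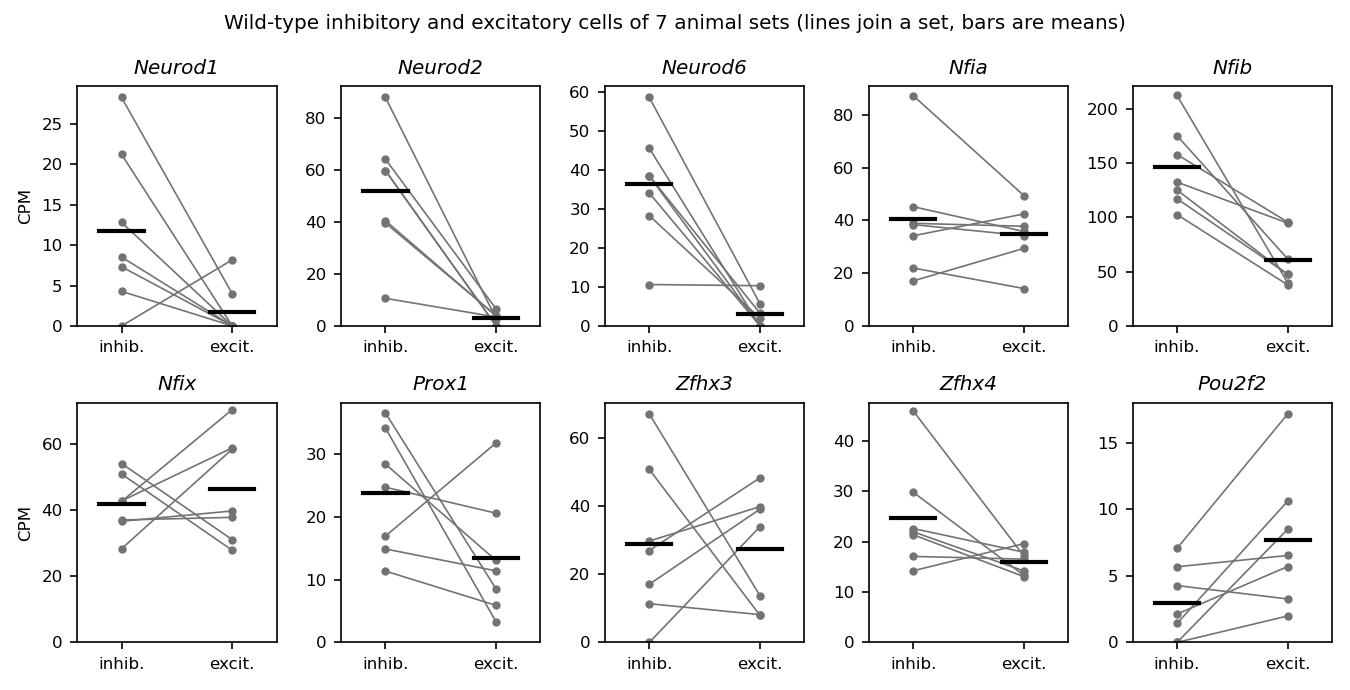
CPM of each factor in inhibitory (left) and excitatory (right) cells of 7 wild-type animal sets, with lines joining the sums of a set and bars at the means. Every inhibitory point lies above its excitatory partner for Neurod2, Neurod6 and Nfib, whereas the lines cross for Nfia, Nfix and Zfhx3.

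Each reporter line was next set against wild-type cells of its own class, which asks whether the level of a factor in a class depends on the line. These contrasts had a high background, with 21.3% of 7687 genes called for the vGat line and 15.4% of 7163 for the vGlut2 line, and all 10 oligodendrocyte markers were called lower in vGat cells than in wild-type inhibitory cells (median log2 difference -3.35). Markers of other glia were lower there as well, with 3 of 3 tested markers of oligodendrocyte precursors and 3 of 5 of astrocytes called (median log2 differences -3.90 and -4.28). In vGlut2 against wild-type excitatory cells, 3 of 10 oligodendrocyte markers were called lower (median -1.94, 8 at an unadjusted p under 0.05 in edgeR), as were 2 of 3 of precursors, while 0 of 2 tested astrocyte markers were called by edgeR or had an unadjusted p under 0.05. The part of glial RNA other than that of oligodendrocytes in these contrasts was not tested. Both contrasts share wild-type mice with the class comparison.

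In inhibitory cells, Neurod1 was called higher in the vGat line, and Nfia, Nfib and Prox1 were called lower, 4 of 9 factors tested, where 8.39% of all genes were called higher and 12.9% lower. Nfia had 10.8, 12.3 and 12.5 CPM in the vGat sets and 17.1 to 87.4 CPM (median 38.4) in 7 wild-type sets, with no overlap (log2 difference -1.92 ± 0.35, edgeR adjusted p = 0.000254). Prox1 had 5.14, 13.0 and 6.61 CPM in the vGat sets and 11.4 to 36.6 CPM (median 24.8) in wild type, with overlap (log2 difference -1.38 ± 0.45, edgeR adjusted p = 0.0299). Nfib averaged 92.3 ± 13.7 CPM in vGat cells (SD, n = 3) and 146.2 ± 38.2 CPM in wild-type cells (n = 7; log2 difference -0.68 ± 0.20, edgeR adjusted p = 0.0149), and its highest vGat set passed its lowest wild-type set.

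Neurod1 averaged 28.8 ± 7.37 CPM in vGat cells (n = 3) and 11.8 ± 9.90 CPM in wild-type inhibitory cells (n = 7), a log2 difference of 1.27 ± 0.44 with overlapping sets (edgeR adjusted p = 0.0402). Neurod2 and Neurod6 were not called, with log2 differences of -0.65 ± 0.30 and 0.51 ± 0.26 (edgeR adjusted p = 0.120 and 0.164). The Neurod1 call rested on the fit used. It was lost with DESeq2 (DESeq2 adjusted p = 0.106) and with age as a covariate (edgeR adjusted p = 0.0627). Over left-out sets it was called only without the 22-day wild-type set labelled female; in 4 of the other fits the edgeR adjusted p was 0.0518 to 0.0681, and in 5 the gene failed the filter. Nfia alone was still called without the 17-day or without the 24-day vGat set, and Nfia and Nfib without the 26-day wild-type set. Over all genes 13.4%, 13.0% and 19.1% were called in those fits, against 21.3% in the main fit.

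In excitatory cells, Nfia and Nfib were called lower in the vGlut2 line, 2 of 4 factors tested, where 10.4% of all genes were called lower and 5.08% higher. Nfia had 4.37, 9.57, 4.602 and 36.8 CPM in the vGlut2 sets of 23, 24, 25 and 26 days and 14.2 to 49.9 CPM (median 35.8) in 9 wild-type sets (log2 difference -2.39 ± 0.50, edgeR adjusted p = 0.00197). Nfib had 6.56, 19.1, 9.71 and 64.5 CPM in the same vGlut2 sets and 37.8 to 95.7 CPM (median 61.7) in wild type (log2 difference -2.25 ± 0.46, edgeR adjusted p = 0.00169). For both genes 3 vGlut2 sets lay below every wild-type set and the 26-day set lay inside their range. Without that set the log2 differences were -2.91 for Nfia and -2.78 for Nfib, while without the 25-day set neither was called by edgeR, though both had an unadjusted p under 0.05. Without the 25-day set 5.84% of all genes were called, against 15.4% in the main fit. Prox1, which failed the filter, had 3 counts in vGlut2 excitatory cells and 57 in wild-type ones, a ratio of wild type over vGlut2 of 13.3 (counting interval 4.32 to 66.4).

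The lower levels were spread over types. Over 12 excitatory types with at least 10 cells in each line, Nfib was lower in the vGlut2 line in 12, Nfia and Prox1 in 11 and Nfix in 10. Over 10 inhibitory types, Nfia was lower in the vGat line in 9, Nfib in 8 and Prox1 in 7. Neurod1 and Neurod6 were each higher there in 9, and Neurod2 in 7, although the Neurod2 estimate over sets was lower. Types of a line share the same animal sets and capture runs, so they do not replicate each other. These counts are a description with no test, and such counts were not made for other genes.

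Oligodendrocyte RNA moved with Nfia and, in excitatory cells, with Prox1. In wild-type excitatory cells it made up a median of 5.72% of UMIs in the 34 cells with an Nfia UMI and 0.301% in the cells without (cells thinned to 3000 UMIs for this call), and 7.51% in cells with a Prox1 UMI and 0.325% in cells without. For Nfia in wild-type inhibitory cells these medians were 4.57% and 0.300%. Few cells stand behind the gaps in wild-type inhibitory cells for Neurod1 (2.02% in 6 cells with a UMI, 0.351% without) and Pou2f2 (1.46% in 2 cells, 0.351% without), and in excitatory cells for Neurod6 (3.10% in 3 cells, 0.363% without). Gaps were also seen in wild-type excitatory cells for Nfib (1.53% with, 0.348% without) and Nfix (1.27% with, 0.353% without). No such gap was seen for Neurod2 in inhibitory cells (0.217% with, 0.427% without) or for Zfhx4 in excitatory cells (0.363% with, 0.364% without). The part of this RNA in the differences between lines was not tested beyond the subset that follows.

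When only cells with under 1% of oligodendrocyte marker UMIs were kept, a step added after the data were seen, Nfia was at 12.1 ± 0.875 CPM in vGat inhibitory cells (SD, n = 3) and 16.1 ± 16.04 CPM in wild-type inhibitory cells (n = 7). In excitatory cells it was at 5.88 ± 3.21 CPM in the vGlut2 line (n = 3) and 19.2 ± 12.9 CPM in wild type (n = 8). The 26-day vGlut2 set, which lay inside the wild-type range for Nfia and Nfib, held fewer than 10 such cells and dropped out. Prox1 was then at 3.54 ± 5.24 CPM in vGlut2 and 3.53 ± 4.52 CPM in wild-type excitatory cells, but the vGlut2 value rests on 3 counts and its highest set, the 24-day one at 9.57 CPM, on 1 count. In inhibitory cells Prox1 averaged 8.30 ± 4.06 CPM for vGat and 15.4 ± 11.3 CPM for wild type. In this subset, which kept 61.2% of wild-type inhibitory and 58.9% of wild-type excitatory cells, neither gene passed the filter. Nfib was at 94.9 ± 15.7 CPM in vGat and 156.3 ± 64.3 CPM in wild-type inhibitory cells (log2 difference -0.70 ± 0.25, edgeR adjusted p = 0.0746). It was at 11.9 ± 6.49 CPM in vGlut2 and 58.2 ± 42.7 CPM in wild-type excitatory cells (log2 difference -2.49 ± 0.62, edgeR adjusted p = 0.0114). Over all excitatory cells, the Nfib difference without the 26-day vGlut2 set was -2.78. In the vGat comparison 0 of 5 tested factors were then called by edgeR, with 2 at an unadjusted p under 0.05. In the vGlut2 comparison Nfib was the only factor that passed the filter. Calls over all genes were fewer too in this subset, at 9.22% for the vGat line and 6.28% for the vGlut2 line against wild type. The classes of wild type still differed in this subset in Neurod2 (log2 difference 3.93), Neurod6 (4.43) and Nfib (1.57), each called by edgeR (adjusted p = 3.13e-05, 0.000539 and 0.000352). Nfix turned to a higher estimate in inhibitory cells there, with 44.6 ± 17.1 CPM for that class and 25.7 ± 20.4 CPM for excitatory cells, and was not called (log2 difference 0.82 ± 0.48, edgeR adjusted p = 0.442).

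**Figure D3:**
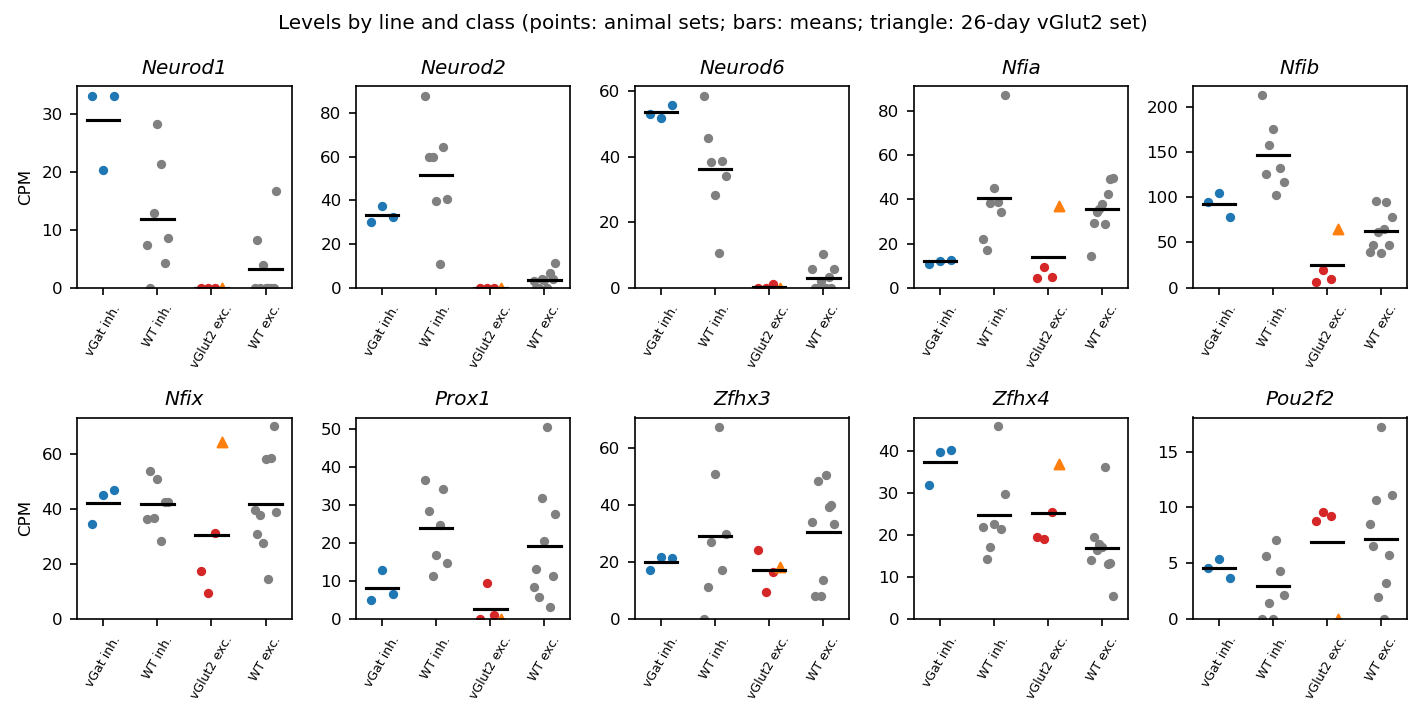
CPM per animal set (points) and mean (bars) of each factor in inhibitory cells of the vGat line and of wild type, and in excitatory cells of the vGlut2 line and of wild type. The orange triangle is the 26-day vGlut2 set, which lies at 36.8 CPM for Nfia and 64.5 CPM for Nfib, inside the wild-type range, while the other vGlut2 sets lie below it.

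Age gave no called slope. In wild-type sets labelled male, 0 of 6 factors tested in inhibitory cells (18 to 27 days) and 0 of 5 in excitatory cells (18 to 28 days) were called by edgeR, against 0.0472% of all genes in inhibitory cells (0.0315% higher, 0.0157% lower) and 0.0269% in excitatory cells (0.0135% higher, 0.0135% lower), and DESeq2 called 0 of 10 in each class. Nfia had the only slopes with an unadjusted p under 0.05 in edgeR, 0.17 ± 0.06 log2 units per day in inhibitory cells (adjusted p = 0.551) and 0.10 ± 0.05 in excitatory cells (adjusted p = 0.584).

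Within the inhibitory class the factors were spread unevenly over types. Neurod2 was called higher in Gaba14, named for Crabp1, and in Gaba3, named for galanin (Gal). Nfib and Nfix were called higher in the galanin types Gaba2 and Gaba3, and Zfhx3 in 2 types named for neuropeptide Y (Npy). Each of 29 types was fitted against the average of all remaining types in its class, on sums of at least 2 cells from 16 sets. Neurod2, Neurod6, Nfib, Nfix and Zfhx3 passed the filter. In their tests over the 29 types 12 were called higher and 0 lower (edgeR), where 1.80% and 0.408% of all 137315 tests were called, 2.20% in either direction. Since the types were made from these cells, these p-values are not independent of them.

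Neurod2 was highest in Gaba14 (GABA_Crabp1), at 137.2 CPM over all its cells and 164.9 ± 99.4 CPM over 7 sets (SD), and 30 of its 41 cells held a UMI. Gaba15 (GABA_Crabp1_Spp1, 11 cells) followed at 96.4, Gaba3 (GABA_Gal_Rspo3) at 77.003, Gaba11 (GABA_Cplx1_Calb2) at 67.2 and Gaba2 (GABA_Gal_Pnoc) at 42.2 CPM. The other 9 inhibitory types lay between 6.86 and 13.8 CPM, and the 15 excitatory types between 0 and 4.66 CPM. Gaba14 and Gaba3 were called higher than the other inhibitory types (log2 difference 2.87 and 2.24, edgeR adjusted p = 1.70e-07 and 3.74e-05).

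Neurod6 was spread more evenly, from 73.1 CPM in Gaba2 to 21.8 CPM in Gaba9 (GABA_Calb2_Tac1) over the 14 inhibitory types, and no type was called. Neurod1 ran from 51.9 CPM in Gaba15 and 38.9 CPM in Gaba14 down to 7.21 CPM in Gaba2 and 5.12 CPM in Gaba7 (GABA_Npy_Crabp1). It was at 0 in 12 of the 15 excitatory types and in the type with disagreeing labels. Its 18.6 CPM in Glut15 (Glut_Elavl4_Lypd1) came from a single cell.

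Nfib, present in every type, was highest in Gaba2 at 226.5 CPM (240.7 ± 92.3 over 11 sets, SD) and Gaba3 at 205.8 CPM (232.1 ± 70.7 over 10 sets), where 83.9% and 75.9% of cells held a UMI. Both were called higher (log2 difference 1.80 and 1.65, edgeR adjusted p = 7.42e-08 and 2.75e-06). The lowest levels were in Glut6 (Glut_Tac2_2), at 6.64 CPM, and Glut7 (Glut_Tac2_1), at 10.1 CPM. Among excitatory types Glut14 (Glut_Elavl4_Meis2) was called higher, at 105.3 CPM (log2 difference 1.62, edgeR adjusted p = 0.0100), but with sums of at least 5 cells the difference was -0.03.

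Nfix was called higher in the same pair of galanin types. It stood at 115.3 CPM in Gaba2 and 80.0 CPM in Gaba3 (log2 difference 2.96 and 2.73, edgeR adjusted p = 5.75e-10 and 2.39e-07), at 10.2 CPM in Gaba14, and at 0 in the 11 cells of Gaba4 (GABA_Tac2). In Glut6, where Nfib was lowest, Nfix was highest among excitatory types at 63.1 CPM (log2 difference 1.48, edgeR adjusted p = 0.0496). Nfia had no such peak. Its level was 66.8 CPM in Gaba15, 59.4 CPM in Glut15 and 51.2 CPM in Glut1 (Glut_Cck_Maf), and only 2.05 CPM in Gaba14, where 1 of 41 cells held a UMI. Prox1, not tested by type, was highest in Gaba2 at 36.03 CPM, seen in all 11 sets (50.2 ± 29.3 CPM, SD), and stood at 33.4 CPM in Glut15 and 24.4 CPM in Gaba3.

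Among inhibitory types the Zfhx genes peaked together in the 3 types named for neuropeptide Y. Zfhx3, which in other neurons acts in differentiation and circadian output, stood at 131.2 CPM in Gaba5 (GABA_Npy_only), 75.98 CPM in Gaba6 (GABA_Npy_Qrfpr) and 56.3 CPM in Gaba7, against 0 to 27.1 CPM in the other 11 inhibitory types. Gaba5 (101.1 ± 35.3 CPM over 4 sets) and Gaba6 (84.6 ± 32.6 CPM over 5 sets) were called higher (log2 difference 2.73 and 2.67, edgeR adjusted p = 0.00167 and 0.000263). Zfhx4 stood at 120, 95.9 and 76.7 CPM in Gaba5, Gaba6 and Gaba7, and at 39.5 CPM or less in the other inhibitory types. It was seen in 15 of 19, 29 of 51 and 18 of 39 cells of those types, but did not pass the filter.

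In excitatory types, Zfhx3 was called higher in Glut15 at 103.9 CPM and in Glut2 (Glut_Cck_Cpne4) at 68.8 CPM (log2 difference 2.86 and 2.16, edgeR adjusted p = 0.00430 and 0.00828). The Glut15 value rests on 28 counts in 6 of 22 cells, and only 1 of its 3 sets with at least 2 cells held any. Glut15 also had much oligodendrocyte RNA, with a median of 25170 CPM per cell, second to Gaba1 with 50775 CPM and well above the other excitatory types, which had medians of 0 to 1882 CPM. With the cells of a type summed, as for the levels, the gap was smaller: 39351 CPM in Glut15 and 33265 CPM in Glut10, the next excitatory type. The part of that RNA in the Glut15 levels was not tested. Pou2f2 was highest in Glut4 (Glut_Nts) at 19.7 CPM and Glut6 at 13.3 CPM, from 5 and 8 counts, and at 0 in Gaba4, Gaba14, Gaba15, Glut13 and Gaba1.

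The 30 types were also put in order by their mean over sets. For each of the 10 genes, none of the 29 neighbouring pairs in that order differed by more than the larger of their SDs over sets. The places of neighbours are therefore not firm, but this is a description and not a test of whether types differ. The type with disagreeing labels held Nfib (140.7 CPM), Nfix (70.4 CPM) and Neurod6 (56.3 CPM) and had no count of Zfhx4, Pou2f2 or Neurod1.

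Patterns over the 30 types were compared as Pearson's r on log2(CPM + 1), given as a description with no test, since types share libraries and depth. Neurod2 and Neurod6 had r = 0.793, Neurod1 and Neurod6 0.792, Neurod2 and Nfib 0.623, and Neurod6 and Pou2f2 -0.612. Among 11223 genes with at least 20 CPM in some type, the nearest to Neurod6 was Gad2 (r = 0.921), a GABA-making enzyme, the nearest to Neurod1 was Rnd3 (0.887), and the nearest to Neurod2 was Sfrp1 (0.870), a secreted Wnt modulator. For the others the nearest genes had lower r, from 0.639 for Nfia with Smad7 to 0.818 for Zfhx4 with Xxylt1. Between them lay Prox1 with Crls1 (0.654), Nfib with Hsd17b7 (0.714), Zfhx3 with Tle4 (0.755), Pou2f2 with Dmtf1 (0.777) and Nfix with Ssh3 (0.790).

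In single cells the question is whether the later-born set (Neurod1, Neurod2, Neurod6, Nfia, Nfib, Nfix) and the earlier-born set (Zfhx3, Zfhx4, Pou2f2) exclude each other. Each cell was thinned to 3000 UMIs so that depth was equal, which every cell allowed. A UMI of any Neurod gene was then seen in 23.6% of 760 inhibitory cells (exact 95% interval 20.6 to 26.7) and in 7 of 767 excitatory cells (0.913%, 0.368 to 1.87). The median depth before thinning was 10430 UMIs in inhibitory and 7364 UMIs in excitatory cells. With the Nfi genes added, the later-born set was seen in 48.9% of inhibitory and 19.2% of excitatory cells, and the earlier-born set in 14.1% of inhibitory and 12.6% of excitatory cells.

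Both sets were seen in the same cell in 33 of 760 inhibitory cells (4.34%) and 15 of 767 excitatory cells (1.96%). In wild type the 14 cells with both sets had a median of 2.57% oligodendrocyte marker UMIs, against 0.701% in cells with the later-born set only, 0.198% with the earlier-born set only and 0.331% with neither. The part of that RNA in co-detection was not tested. Over 16 animal sets with at least 10 cells, 47 cells held both where 67.3 were expected from the shares of each set within each class, a ratio of 0.698. The observed share was below the expected one in 14 of 16 sets, by a mean of 1.28 percentage points (difference -1.28, SD 1.53; exact two-sided sign-flip permutation test, p = 0.00632).

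This test depended on the random draw of the thinning. In 20 other draws, added after the data were seen, the pooled ratio was below 1 each time (0.649 to 0.823, median 0.738), but the mean difference ran from -1.60 to 0.105 points (median -0.851), and the exact permutation p was under 0.05 in 8 of the 20 (median 0.115). The difference is therefore not firm over sets. Within annotated types, 44 cells held both where 56.4 were expected, and the mean difference was -0.346 points (exact permutation p = 0.5625), with 0 of 20 draws at p under 0.05.

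**Figure D4:**
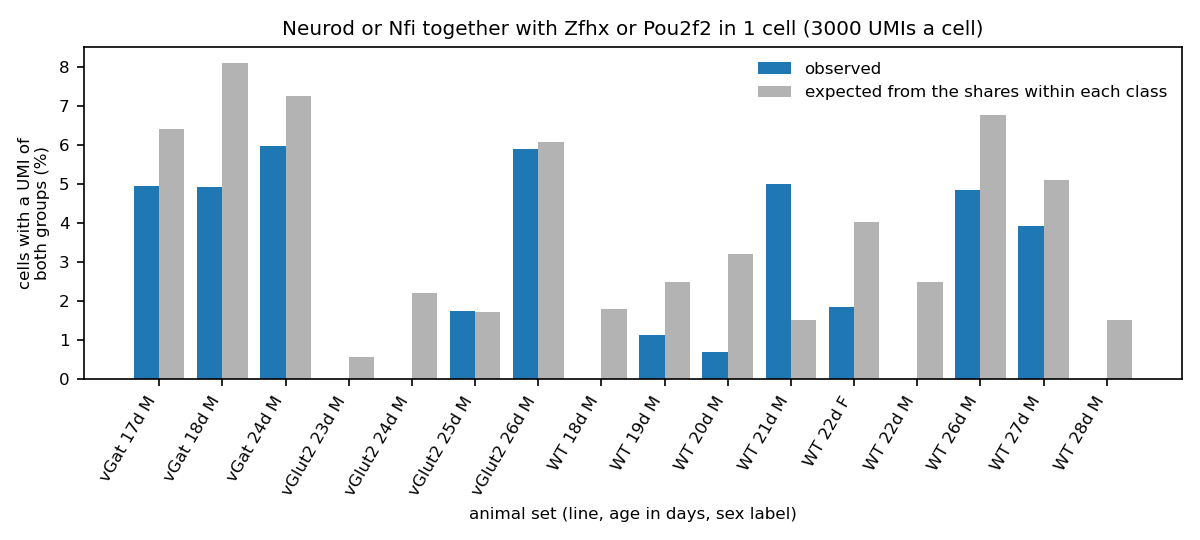
Share of cells (%) with a UMI of both the Neurod or Nfi set and the Zfhx or Pou2f2 set in each animal set, observed (blue) and calculated from the product of the shares within each class (grey), after thinning to 3000 UMIs in the planned draw. The observed bar is the lower one in 14 of 16 sets; the 21-day wild-type set goes the other way.

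Single pairs of genes were then counted. Of 8 pairs across the sets with at least 5 cells expected within classes, 7 had fewer cells with both genes than expected (median ratio over draws 0.594), lowest for Neurod2 with Zfhx4 at 0.321. Of 11 pairs within the Neurod and Nfi set, 10 had more than expected (median 1.25), and Neurod1 with Nfix was the exception (0.550). Nfib and Nfix were seen together in 45.5 cells on average where 28.1 were expected (ratio 1.64), and Neurod2 and Nfib in 32.1 where 20.2 were expected (1.60). Zfhx3 and Zfhx4 met in 13.6 cells where 6.23 were expected (2.23). The expectation is within classes and not within types, and the ratios within types were closer to 1 for both pairs of relatives. In the planned draw Nfib with Nfix had a ratio of 1.29 within types and 1.59 within classes, and Zfhx3 with Zfhx4 had 1.53 within types and 2.45 within classes. Neurod2 with Zfhx4, a pair across the sets, had 0.485 within types and 0.278 within classes in that draw. For all 18 pairs across the sets the median ratio was 0.778 within types, with 12 below 1 and 6 above. Within classes it was 0.698, with 13 below 1 and 5 above. Pairs of other genes were not counted. Pairs are a description, with no test.

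**Figure D5:**
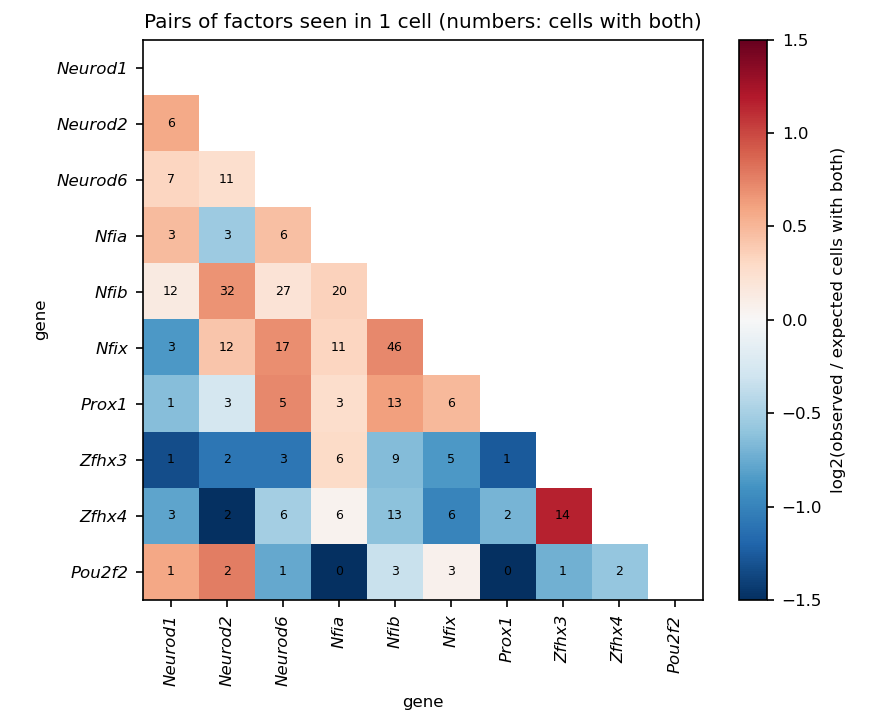
Cells with a UMI of both genes of a pair after thinning to 3000 UMIs: the number is the mean over 20 draws, and the colour is the log2 of the median ratio of observed to expected cells (blue, fewer than expected; red, more). Squares of the Neurod and Nfi genes with each other are mostly red, squares of these genes with Zfhx3 or Zfhx4 are mostly blue except for Nfia, and the square of Zfhx3 with Zfhx4 is the darkest red.

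Other genes of these pathways were taken from lists written with earlier results known. Over all genes 8.85% were called between the reporter lines and 5.63% between the wild-type classes. Of the family relatives, Nfic, Zfhx2 and Pou2f1 were tested between the reporter lines and between wild-type classes, and 0 of 3 were called in either (edgeR, with 0 at an unadjusted p under 0.05). Their median log2 difference was -0.15 between the lines and -0.09 between the classes, against -0.01 for all genes in each. Nfic was lower in each reporter line than in wild-type cells of its class (log2 difference -1.23 for vGat and -1.04 for vGlut2, edgeR adjusted p = 8.73e-05 and 0.00256). Of the E proteins and their inhibitors, 2 of 5 tested were higher in the vGat than in the vGlut2 line (median log2 difference of the 5, 0.12). Id2, whose product binds E proteins and keeps them from DNA, was higher by 2.34 ± 0.29 log2 units there and by 2.43 ± 0.19 in wild-type inhibitory against excitatory cells (edgeR adjusted p = 5.55e-05 and 1.58e-08), the only call among 4 tested in wild type. Id4 was higher by 1.21 in the vGat line (edgeR adjusted p = 0.00230). Tcf4, an E protein that can pair with Neurod factors, was not called between the reporter lines (log2 difference 0.05 ± 0.28, edgeR adjusted p = 0.959). It was lower in each of them than in wild-type cells of its class (-1.44 and -1.62 for vGat and vGlut2, edgeR adjusted p = 1.49e-06 and 0.000700), as Nfic was. Of 4 E proteins and inhibitors tested against wild type, 1 was called higher and 2 lower for vGat, and 0 and 1 for vGlut2. Over all genes 8.39% were called higher and 12.9% lower for vGat, and 5.08% and 10.4% for vGlut2. The part of glial RNA in these calls was not tested.

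Of the other time and projection factors only Foxp1 and Maf passed the filter. Maf was lower in wild-type inhibitory than excitatory cells (log2 difference -1.35 ± 0.30, edgeR adjusted p = 0.00700). It did not pass between the lines (-0.93 ± 0.31, edgeR adjusted p = 0.0819). Among 5 projection neuron markers, Lypd1 and Gpr83 were tested. Lypd1 was higher in the vGat than in the vGlut2 line (log2 difference 2.18 ± 0.25, edgeR adjusted p = 2.37e-05), with 0.71 ± 0.27 in wild-type inhibitory against excitatory cells (adjusted p = 0.168, edgeR). Gpr83 had estimates of the opposite sign and was not called, at -0.92 ± 0.36 between the lines (edgeR unadjusted p 0.0208, adjusted p = 0.143) and -0.81 ± 0.51 between the wild-type classes (adjusted p = 0.481, edgeR).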

How the data were processed

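Counts of UMIs per gene and cell were deposited by the authors as a table of raw counts; per the submitters' processing notes they were made with Cell Ranger on mm10, with no version given. The sources used here do not state how cells and doublets were filtered. The labels' protocol names a droplet kit while the titles give a run and a well. All 1545 cells and the authors' type labels were used; 0 columns of values were left out.

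Counts were summed per animal set, or per set and class (at least 10 cells) or type (at least 2 cells), giving 104516 to 2610560 UMIs per sum in the comparison of the reporter lines, and levels are CPM (per 1000000 UMIs). Tests used edgeR 4.0.16 in R 4.3.3 (quasi-likelihood, TMM, filterByExpr, Benjamini-Hochberg over all genes, threshold 0.05), tested on simulated data with known changes. Both classes of a wild-type set come from the same mice, so the set was a block there. DESeq2 1.42.0, other size factors, no filter, age as a covariate and leaving out each set were tried as alternatives. For co-detection, cells were thinned to 3000 UMIs and sets compared by an exact sign-flip permutation test (scipy 1.17.1); python 3.11.15, numpy 2.4.6, pandas 2.3.3 and matplotlib 3.10.9 were used. Intervals are exact, at 95%, and cover counting error only, as does the floor of 3 counts.

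All 10 factors are named, with members of the pathway lists and, for likeness, the 2 nearest genes as candidates, of which the nearest is printed. The factors, lists and rules were chosen with earlier results of these data known.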

Additional observations from a re-analysis of the deposited data

Results flagged for a closer look

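A value was picked out where it lay apart from the other animal sets of its group by Dixon's criterion. Of 39 groups of values, 11 held such a value. Some groups share most of their cells, and some hold counts near 0. Where every set but 1 stands at 0, the criterion is met whatever the value. The number of flags can therefore not be set against a chance rate.

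In the vGlut2 line, Neurod2 stood at 12.6 CPM in the 26-day set with 0 in the other 3 sets. Neurod6 stood at 1.02 CPM in the 25-day set with 0 in the others, over all cells and over excitatory cells alike. Prox1 stood at 9.57 CPM in the 24-day set, from 1 count, with 1.02 CPM next, again over all and over excitatory cells. Among excitatory cells of that line, the 26-day set was apart in Nfia (36.8 CPM, next 9.57 CPM) and in Pou2f2 (0 CPM, next 8.74 CPM).

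In wild-type excitatory cells, Neurod1 stood at 16.6 CPM in the 28-day set (next 8.17 CPM) and Zfhx4 at 36.1 CPM in the 22-day set labelled male (next 19.6 CPM). In wild-type inhibitory cells, Nfia stood at 87.4 CPM in the 27-day set (next 45.2 CPM). The 21-day wild-type set had 3.47 percentage points more cells with both sets of factors than expected, where the next set lay at -1.18.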

How the results depend on the processing

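The called differences between the reporter lines and between wild-type classes held in every leave-one-out fit and with DESeq2 (over left-out sets, 4 to 5 factors called between the lines and 3 between the classes). The calls of reporter lines against wild type did not: over left-out sets 1 to 5 factors were called for the vGat line (1 without its 17-day or 24-day set, 2 without the 26-day wild-type set) and 0 to 3 for the vGlut2 line (0 without its 25-day set). Calls over all genes fell in these fits too. For vGat they were 13.4%, 13.0% and 19.1% without those 3 sets, against 21.3% in the main fit. For vGlut2 they were 5.84% without the 25-day set, against 15.4%. In cells with little oligodendrocyte RNA, 0 of 5 tested factors were called for vGat and 1 of 1 for vGlut2. The main fits tested 9 and 4. In the subset Nfia failed the filter for both lines and Prox1 failed it for vGat, so these calls were not lost by a test. Nfib was tested for vGat and not called. With no replicate block for the pairing within mice, 1 factor was called in wild type, but the filter then kept 4 factors in place of 8. Zfhx3 had a log2 difference of 0.0543 in that fit and was not called. By type, with no filter on low counts, 21 tests over 10 factors and 29 types were called (1.04% of all 570169 tests).

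For co-detection within classes the mean difference was -0.777 points without thinning (exact permutation p = 0.39151), -1.28 in wild type only (p = 0.078125), -0.291 for Neurod genes only (p = 0.155273) and -0.851 as the median of other draws. Within types it was 0.0216 without thinning, and -0.785 to -0.207 over left-out sets, where leaving out the 26-day vGlut2 set gave -0.785 (exact permutation p = 0.00488).

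Reversed signs, with 1 exception of values not called, were as follows. Between the reporter lines, Nfia ran from -0.0161 (without the 25-day vGlut2 set) to 1.27 over left-out sets, and Zfhx3 from -0.193 (the same set) to 0.222, with -0.0056 when the 18-day vGat mice were left out. Between wild-type classes, Nfia ran from -0.0513 (without the 27-day set) to 0.274 and Zfhx3 from -0.379 to 0.258 (above 0 without the 18-, 20-, 26- or 27-day set), while Nfix was 0.818 and Zfhx3 0.448 in cells with little oligodendrocyte RNA. For vGat against wild type, Nfix was 0.0513 with no filter and ran from -0.136 to 0.0822 (without the 17-day vGat set). Age slopes ran from -0.105 to 0.0133 for Prox1 in inhibitory cells and, in excitatory cells, from -0.00643 to 0.0665 for Nfib and from -0.0401 to 0.0631 for Prox1. The exception was Nfib in Glut14, at -0.0276 with sums of at least 5 cells. The cause was not tested in any of these. Leaving out each set was not run for the types. Low counts limit Neurod1, Prox1 and Pou2f2 most.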
